A study of Solanum lycopersicum with 6 samples.

Results

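Transcription factors of the ERF, Pti, CBF and DREB type were measured in tomato leaf discs after 12 h with loliolide. None of the tested probes for these factors passed a false discovery threshold between loliolide and the methanol control in the fit as reported. On the whole array only 0.783% of 37423 tested probes did, so this count says little about the family. With array weights 1 probe, that of ERF-H1, passed. The members were all genes with a RefSeq symbol or synonym that starts with ERF, JERF, DREB or CBF, or that equals Pti4, Pti5 or Pti6, and that had a probe on the array through a RefSeq transcript accession. This gave 13 of the 1191 genes that could be named on the array in this way, with 25 of its 43603 non-control probes. RefSeq names 63 such tomato genes, and the other 50, PTI4, ERF5 and ERF6 among them, had no probe by this route and were not analysed here. The members were PTI5, PTI6, LOC606712 (also erf1a or TERF1), JERF1, JERF3, ERF2, ERF4, ERF-H1, ERF3, ERF7, CBF1, DREB1 and DREB2. JERF1 was covered by 7 probes, JERF3 and PTI6 by 3 each, ERF7 and DREB2 by 2 each, and the 8 other genes by 1 each.

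These proteins share the AP2/ERF DNA-binding domain of plants. In the ethylene pathway, receptors signal through EIN2 to EIN3-like factors, which switch on ERF genes, and ERF proteins bind the GCC box in the promoters of many defence genes. CBF and DREB proteins belong to the same family but bind the dehydration-responsive element and are known for cold and drought responses, while the Pti proteins were found as partners of Pto, a kinase for resistance to bacterial speck.

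The 3 loliolide samples were leaf discs of 1 cm from Micro-Tom plants, a dwarf cultivar of Solanum lycopersicum, floated for 12 h on 300 µM loliolide, a breakdown product of carotenoids. The 3 control samples were like discs floated on 0.1% methanol for the same time, and the labels do not say whether the loliolide solution held methanol. Plants were 4 weeks old and had grown in soil at 25 °C with a day of 16 h and a night of 8 h, and all discs were kept at 25 °C in continuous light. An Agilent array with 1 colour was used for each sample. Nothing in the labels says that replicates came from separate plants, so the p-values reflect only how far these 6 samples differed, which may be technical.

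The methanol arrays shared 1 slide and the loliolide arrays shared a second, scanned at separate times, so an effect of the slide and one of loliolide cannot be told apart for any gene below. The scanner program called 84.5% to 85.3% of the spots well above background on the methanol arrays. On the loliolide arrays it called 86.93% to 87.62%, and it found no spot saturated on any array. The 75th percentile of the signal was 817.5 on the array of loliolide replicate 3 and 1047 to 1117 on the 5 others. Of the planned leaf markers, only the chlorophyll-binding protein genes CAB4 and CAB6A could be matched to probes. All 9 of their probes were well above background on all 6 arrays. Of 27 probes of 6 fruit and ripening markers, 11 were so on all 6 arrays, namely all 8 of Psy1, both of EXP1 and 1 of E8, while 15 were on none, those of 2A11 and ACS4 among them. Of 8 probes of flower markers, 4 were well above background on some arrays and 4 on none. The 1 probe of a root marker was on none. The number of arrays limits the precision.

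Signal levels are given as a percent of the 75th percentile of all non-control spots on the same array, so that 100 stands for that percentile. Levels of different probes are not comparable with each other. Differences are loliolide minus methanol on the log2 scale, from limma over all tested probes with Benjamini-Hochberg adjustment. In all, 24 member probes of 12 genes were well above background on every array and were tested. The single probe of DREB1 was not well above background on any of the 6 arrays, where its methanol readings of 0.134 to 0.483 spanned its loliolide readings of 0.187 to 0.451, and no fold is given for it.

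Across the family, 0 of 24 member probes passed a limma adjusted p of 0.05, where 0.783% of all 37423 tested probes did, 0.77% higher and 0.0134% lower. At an unadjusted p under 0.05, limma counted 1 member probe higher and 2 lower with loliolide, against 14.7% higher and 5.39% lower among all tested probes. Thus 12.5% of the members and 20.1% of all tested probes were under this unadjusted threshold. In mean signal 11 member probes were higher and 13 lower. Their median log2 difference was -0.03, with a range from -0.27 to 0.51, beside a median of 0.06 over all tested probes. The median size of the difference, without its sign, was 0.16 for the members and 0.17 for all tested probes.

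**Figure D1:**
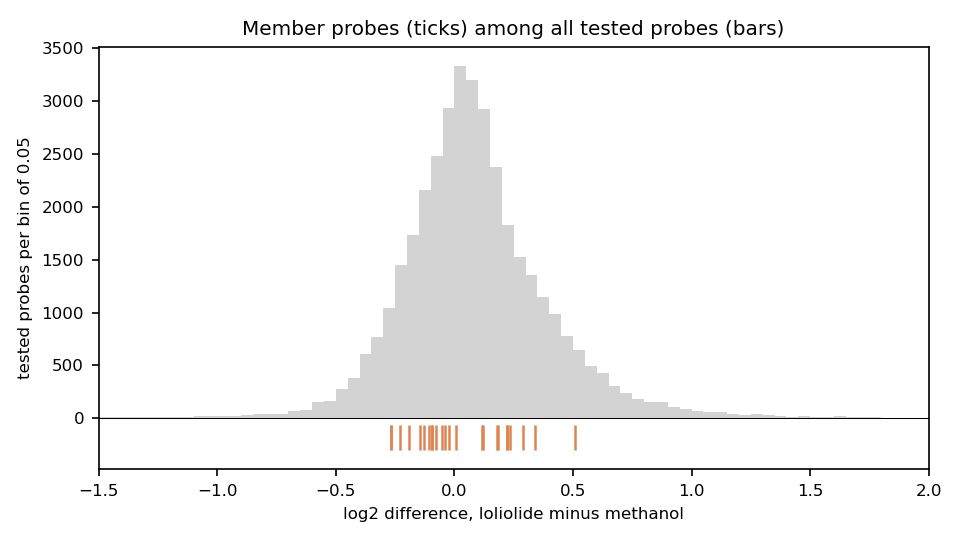
Log2 difference between loliolide and methanol (horizontal axis) for all 37423 tested probes, as the number of probes per bin (bars, vertical axis), and for the 24 tested member probes (ticks). The members lie between -0.27 and 0.51, inside the bulk of the array.

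The precision was enough to bound most of these differences between the methanol and the loliolide arrays. The 95% interval of the difference lay inside 2-fold in either direction for 23 of 24 member probes, and for 88.4% of all tested probes. It lay inside 1.5-fold for 18 of the 24, or 75% of the members, beside 59% of all tested probes. The exception at 2-fold was ERF-H1, whose interval reached 1.11. These are intervals of single probes, not adjusted for their number. Each difference holds any slide effect in full, and the widths leave out variation between slides. The intervals thus do not bound an effect of loliolide alone.

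**Figure D2:**
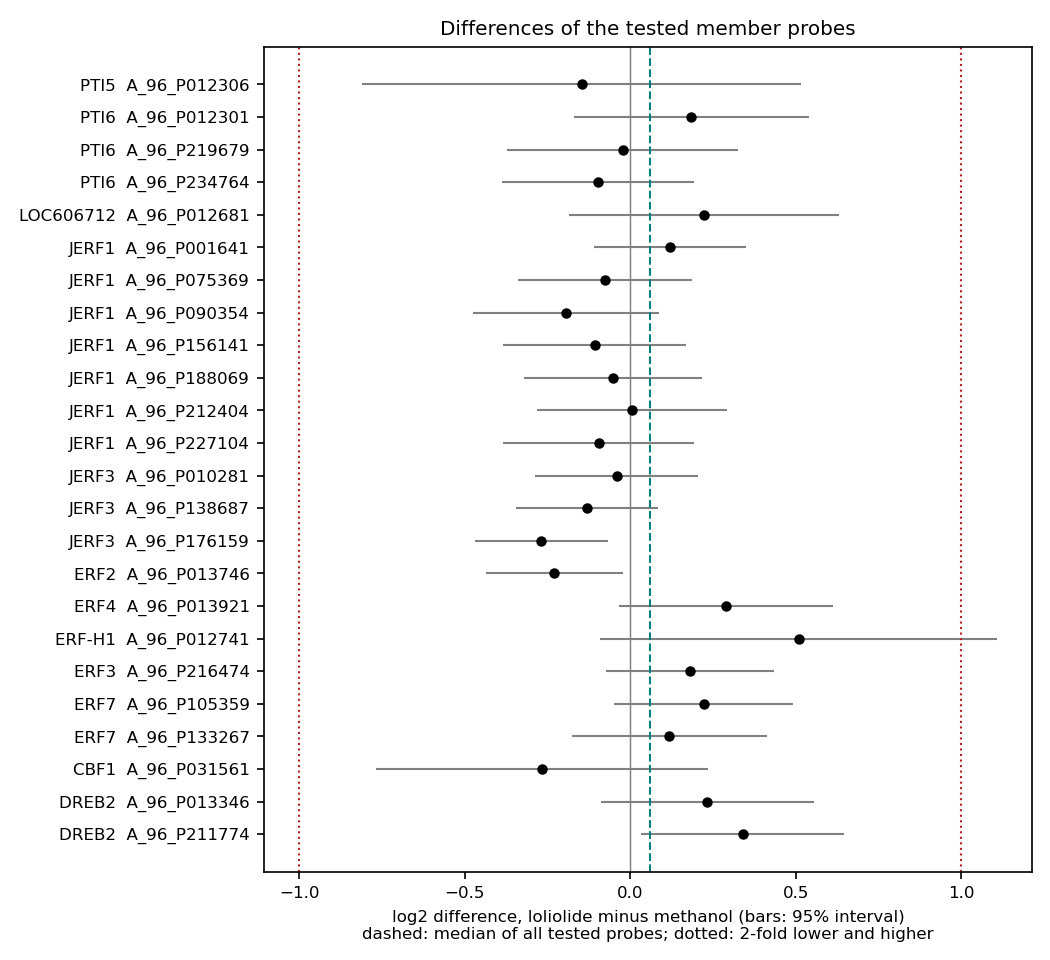
Log2 difference of each of the 24 tested member probes (points) with its 95% interval from limma (bars). The dotted lines mark 2-fold lower and higher, and the interval of ERF-H1 alone crosses one of them.

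The groups did not overlap for 2 member probes with loliolide above and for 3 with loliolide below. Over all tested probes this held for 19.9% above and 9.61% below, and the members' shares were 8.33% and 12.5%. The 2 above were 1 probe each of DREB2 and ERF7, and the 3 below were the probe of ERF2 and 2 probes of JERF3.

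**Figure D3:**
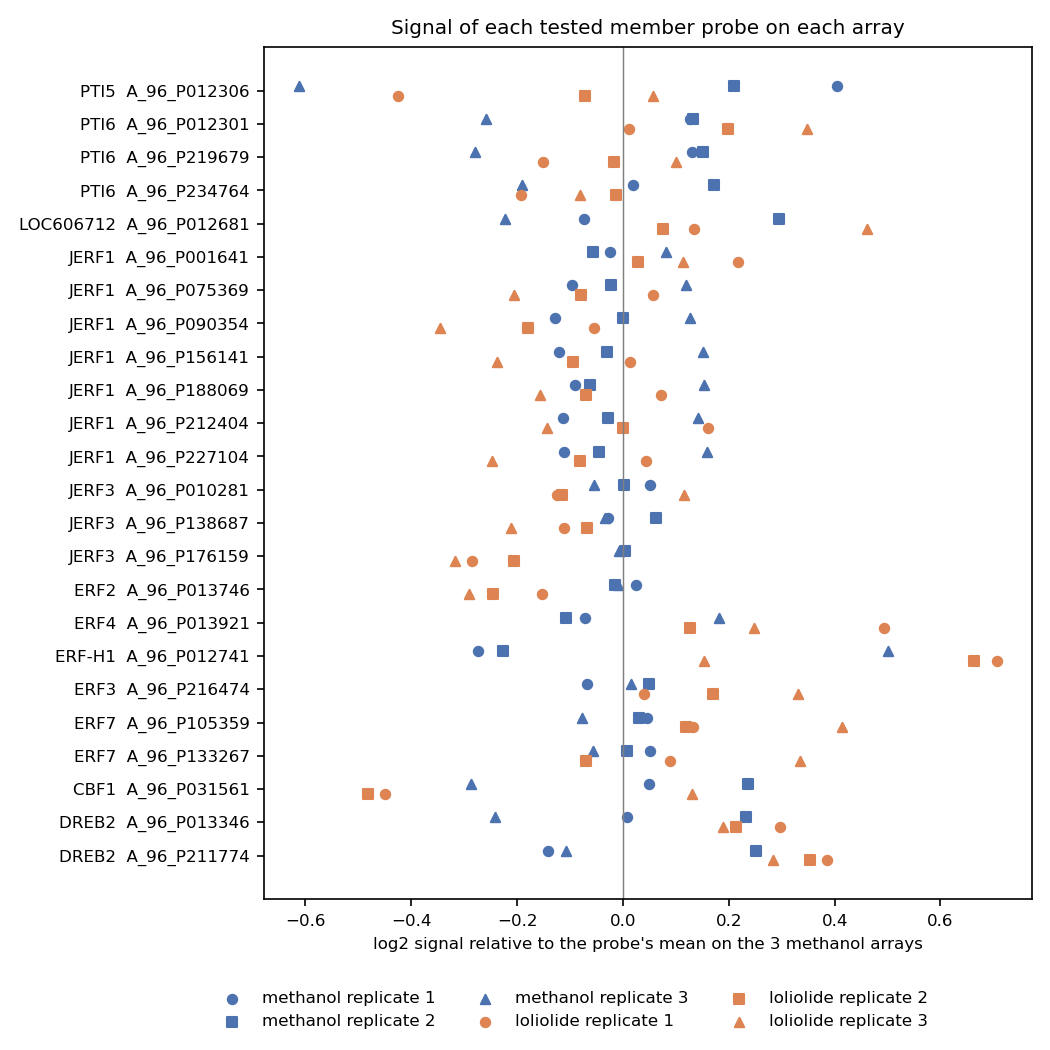
Log2 signal of the 24 tested member probes on each array, relative to the probe's own mean over the 3 methanol arrays (horizontal axis), with methanol in blue and loliolide in orange. The orange and blue points overlap in 19 of the 24 rows.

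The Pti genes are described first. PTI5 (gene 544042) encodes a Pto-interacting factor that binds the GCC box. Its probe spread more among the control discs than with loliolide, at 98.3 to 199 with methanol and 112 to 156 with loliolide. The loliolide arrays lay inside the methanol range, and the log2 difference was -0.15 (95% interval -0.81 to 0.52, limma adjusted p = 0.802). Its standard error, 0.28, was the highest among the tested member probes, whose median was 0.12.

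PTI6 (gene 544043) is another Pto-interacting factor, and it is also classed among the cytokinin response factors by its synonym SlCRF1. Its 3 probes differed by 0.18, -0.02 and -0.10, and none passed (limma adjusted p between 0.515 and 0.947). All 3 probes read lowest among the methanol arrays on replicate 3 and lowest among the loliolide arrays on replicate 1. On the methanol arrays the probe A_96_P012301 read 279.6 to 367 and on the loliolide arrays 337 to 425, so that the groups overlapped.

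Among the ERFs that are known to act as activators, LOC606712 encodes TERF1, which can bind both the GCC box and the dehydration-responsive element. Its methanol readings ran from 362 to 518.5 and its loliolide readings from 445 to 582, overlapping ranges, and it differed by 0.22 (95% interval -0.18 to 0.63, limma adjusted p = 0.496). With single arrays left out this ranged from 0.10 without loliolide replicate 3 to 0.37 without methanol replicate 2.

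JERF1 (gene 544182) is named for its response to jasmonate and ethylene. Its probe A_96_P001641 read 2811, 2747 and 3025 on the methanol arrays of replicates 1, 2 and 3 and 3323, 2917 and 3092 on those of loliolide. The loliolide mean was higher by 0.12 (SE 0.10, limma adjusted p = 0.515), with overlapping groups. The probe A_96_P090354 read 193, 211 and 231 with methanol and 203, 187 and 166 with loliolide, and it was lower in mean by a difference of -0.19 (limma adjusted p = 0.394). The 5 other probes lay between -0.11 and 0.01, and no JERF1 probe passed. With the mean over its 7 probes, the difference of JERF1 was -0.06 (95% interval -0.32 to 0.21, limma adjusted p = 0.811).

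The 7 JERF1 probes were high and low on much the same arrays. Methanol replicate 3 was the highest methanol array for 7 of 7 probes, and loliolide replicate 1 was the highest loliolide array for 7 of 7. The same arrays were the highest of their groups for the leaf marker probes of CAB4 and CAB6A, so this pattern is not particular to JERF1. Loliolide replicate 3, the array with the lowest 75th percentile, was the lowest of its group for 6 of 7. Probes of 1 gene share their RNA and are not replicates.

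**Figure D4:**
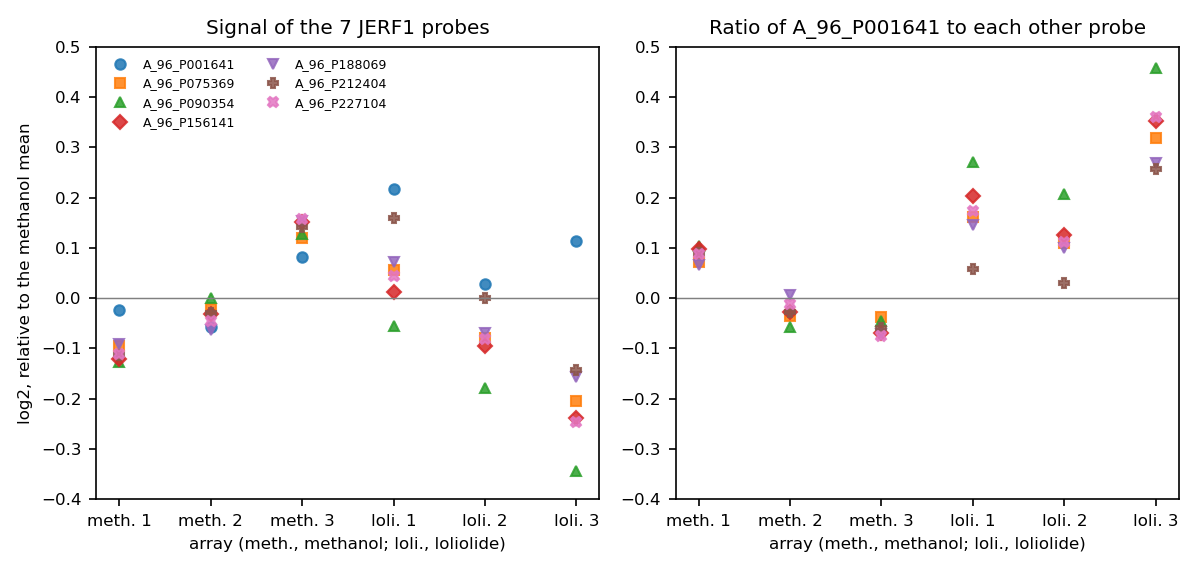
Left, log2 signal of the 7 JERF1 probes on each of the 6 arrays, relative to each probe's methanol mean. Right, the log2 ratio of A_96_P001641 to each of the 6 other JERF1 probes on the same array, relative to the methanol mean of that ratio, which does not depend on the scaling between arrays. The ratios are higher on the loliolide arrays than on all methanol arrays for 5 of the 6 probes.

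A ratio between probes of 1 gene on the same array is free of a scaling by 1 factor per array, as used here. It showed unequal differences within JERF1. A shift that depends on signal level does not cancel in such a ratio, and whether 1 lies between the slides was not tested. The ratio of A_96_P001641 to A_96_P090354 was 3.70 to 3.86 on the log2 scale with methanol and 3.97 to 4.22 with loliolide, a difference in mean of 0.31. Of the 21 such ratios within JERF1, the groups did not overlap for 13. Over the 29 ratios within all member genes, brighter probe over dimmer, the loliolide arrays lay above in 13 and below in 5, or 62.1% in all. Of the 2948 such ratios within all named genes of the array, they lay above in 31% and below in 16%, or 47% in all. The 29 ratios share probes and are not independent, so the share is a description. The ratios within PTI6 differed by up to 0.28, those within JERF3 by up to 0.23, and that of ERF7 by 0.10. The ratio within DREB2 differed by -0.11, and its groups overlapped. As reported, its brighter probe A_96_P013346 differed by 0.233 and its dimmer probe A_96_P211774 by 0.34. With cyclic loess, which adjusts by signal level, they differed by 0.231 and 0.175. In the same setting the JERF1 probes A_96_P001641 and A_96_P090354 differed by 0.047 and -0.203.

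JERF3 (gene 543910), another jasmonate and ethylene responsive factor, is known from tobacco carrying the tomato gene for salt tolerance. Its probe A_96_P176159 read 119.3, 119.4 and 118.5 with methanol and 97.7, 103 and 95.6 with loliolide. All 3 loliolide arrays lay below all methanol arrays, and the methanol arrays were nearly equal. The log2 difference was -0.27 (SE 0.08, 95% interval -0.47 to -0.07), which gave the lowest p among the members and did not pass (unadjusted p = 0.0161, limma adjusted p = 0.162). The second probe, A_96_P138687, also did not overlap between groups, at 176 to 188 with methanol and 156 to 172 with loliolide, and differed by -0.13 (limma adjusted p = 0.451). The third, A_96_P010281, overlapped and differed by -0.04, with loliolide replicate 3 the highest of all 6 arrays at 1257. Over its 3 probes the mean difference of JERF3 was -0.15 (95% interval -0.34 to 0.05, limma adjusted p = 0.346).

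ERF2 (gene 543866), linked in tomato to seed germination, was the other member with lower signal at an unadjusted p under 0.05. Its probe read 236, 229.9 and 231 on the methanol arrays and 209, 196 and 190.0 on the loliolide arrays, again with no overlap. The log2 difference was -0.23 (SE 0.09, 95% interval -0.44 to -0.02, limma adjusted p = 0.216).

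ERF4 (gene 543867), also known as Sl-ERF.B3 from work on ethylene response and fruit ripening, was higher in mean with loliolide. It read 593, 579 and 706 with methanol and 877, 681 and 740 with loliolide. Methanol replicate 3 lay above loliolide replicate 2, so that the groups overlapped. The log2 difference was 0.29 (SE 0.14, 95% interval -0.03 to 0.61, limma adjusted p = 0.289).

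ERF-H1 (gene 606713) had the highest difference among the member probes and an interval that reached past 2-fold. Its probe read 4.24, 4.37 and 7.24 with methanol and 8.36, 8.11 and 5.70 with loliolide, and every one of these readings was well above background. In each group replicate 3 stood apart towards the other group. The loliolide mean was 1.42-fold higher, a log2 difference of 0.51 (SE 0.25, 95% interval -0.09 to 1.11), which did not pass (limma adjusted p = 0.306, with a range of 0.0249 to 0.629 over the alternatives). With array weights, which gave loliolide replicate 3 a weight of 0.309 and methanol replicate 3 a weight of 0.41, the difference was 0.82 and it passed (limma adjusted p = 0.0343). The same weights raised the calls over the whole array from 293 to 2532 probes, with 5.62% of all tested probes called higher, so that 1 of 24 members was no larger a share than the background. Without methanol replicate 3 the difference was 0.76 (limma adjusted p = 0.141), without loliolide replicate 3 it was 0.69 (limma adjusted p = 0.306), and without any other single array it was 0.37 to 0.43. It was 0.33 with normexp background correction, 0.35 with cyclic loess and 0.37 with quantile normalisation. What sets these 2 arrays apart was not tested.

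ERF3 and ERF7 belong to class F of the family by their synonyms, a class known for a repression motif. ERF3 (gene 544260) had methanol readings of 156 to 169.5 and loliolide readings of 168 to 206, which overlapped, and differed by 0.18 (95% interval -0.07 to 0.43, limma adjusted p = 0.38). For ERF7 (gene 100820705), the probe A_96_P105359 read 481, 476 and 442 with methanol and 511, 507 and 621 with loliolide. The groups of this probe did not overlap, with a log2 difference of 0.22 (SE 0.11, limma adjusted p = 0.319). The other ERF7 probe overlapped, at 372 to 401 with methanol and 369 to 488 with loliolide, and differed by 0.12 (limma adjusted p = 0.626). Loliolide replicate 3 was the highest loliolide array for both ERF7 probes, and for ERF3.

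Of the genes for cold and dehydration responses, CBF1 (gene 543826) is a tomato gene known to be switched on by cold. It read 30.4, 34.6 and 24.05 with methanol and 21.5, 21.0 and 32.1 with loliolide. The loliolide arrays of replicates 1 and 2 lay below all methanol arrays, and that of replicate 3 lay inside the methanol range. The log2 difference was -0.27 (SE 0.21, 95% interval -0.77 to 0.24, limma adjusted p = 0.508). With single arrays left out it ranged from -0.47 without loliolide replicate 3 to -0.15 without methanol replicate 2, and it was -0.49 with array weights (limma adjusted p = 0.0704).

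DREB2 (gene 544235) encodes a dehydration-responsive element-binding protein and was higher in mean with both of its probes. The probe A_96_P211774 read 4.85, 6.36 and 4.96 with methanol and 6.98, 6.83 and 6.50 with loliolide, without overlap. Its log2 difference of 0.34 (SE 0.13, 95% interval 0.03 to 0.64) was the 1 higher difference at an unadjusted p under 0.05 and did not pass (limma adjusted p = 0.215). The probe A_96_P013346 read 48.8, 57.0 and 41.1 with methanol and 59.6, 56.3 and 55.3 with loliolide, and differed by 0.23 (limma adjusted p = 0.372). Methanol replicate 2 was the highest methanol array for both probes and overlapped with loliolide in the latter. Over both probes the mean difference of DREB2 was 0.29 (95% interval -0.02 to 0.59, limma adjusted p = 0.261).

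Counted by gene, 0 of 12 member genes passed, whether a gene was represented by the mean over its probes or by its brightest probe. How many of all 28299 genes and unnamed transcripts passed at this level was not counted, so the 0 says little about the members. The authors' deposited table of responsive probes holds 27 probes, and none of them belongs to these genes. With 27 probes listed beside 43603 non-control probes on the array, 0 of 25 member probes says little about the members. The lowest mean log2 ratio in the authors' deposited table is 1.13. That table holds chosen probes, with ratios made in a way not given. The ratio is thus not directly comparable with the highest member difference of 0.51 from limma. Probe sequences were not used here, so that hybridisation of related family members to the same probe was not checked.

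Spike-in scaling moved the members together with the whole array. When arrays were scaled to their spike-in controls, the median of all probes went from 0.06 to -0.24, the median of the members was -0.33, and 22 of 24 member probes were lower in mean, as were 79.7% of all tested probes. The 2 that stayed higher were ERF-H1 at 0.21 and the DREB2 probe A_96_P211774 at 0.04. No member passed with this scaling either (lowest limma adjusted p = 0.202).

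**Figure D5:**
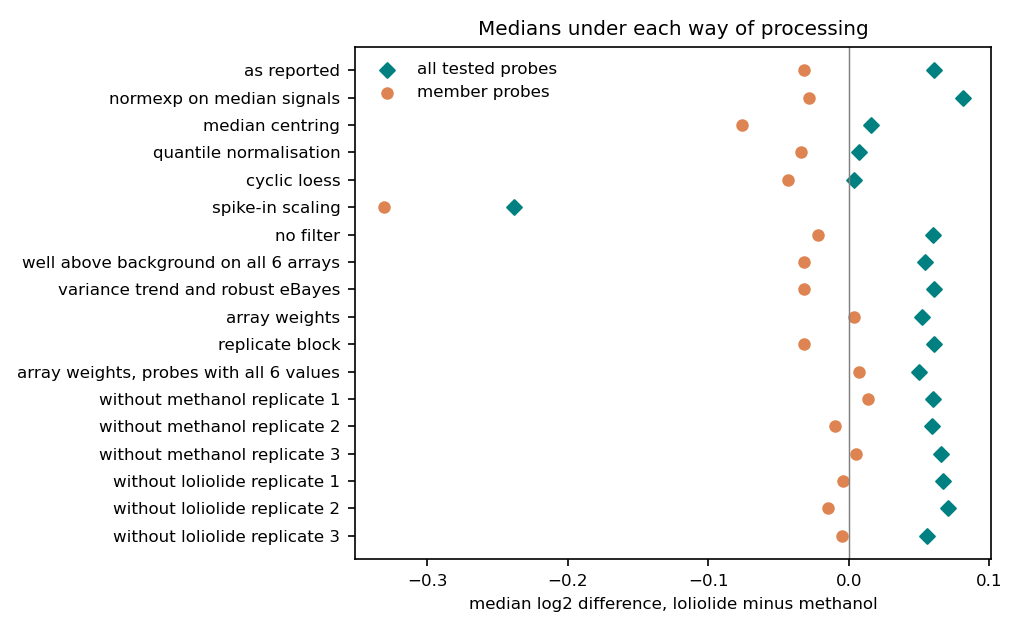
Median log2 difference of the member probes (circles) and of all tested probes (diamonds) under each way of processing. Both medians shift down with spike-in scaling, to -0.33 and -0.24, and the members' median stays between -0.08 and 0.01 under the other settings.

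Genes around these factors were read off the same fit by lists of symbols. On the whole array 0.783% of tested probes passed and 39.2% were lower in mean, with a median of 0.06. In lists of so few probes, a count of 0 or 1 passing thus says little about their genes. Upstream, 10 of 15 ethylene synthesis genes on the array had a tested probe. Of their 32 tested probes 1 passed, higher with loliolide, and 0 lower, with a median of 0.09. It was a probe of ACS2, which makes the ethylene precursor, with a log2 difference of 0.79 (limma adjusted p = 0.0319), and the second ACS2 probe differed by 0.95 (limma adjusted p = 0.11). Of 36 probes of 17 ethylene perception and signalling genes 0 passed, with 26 higher in mean and a median of 0.07. The ethylene receptor gene LOC544279 (tETR) had the lowest p of that list, with 1 probe at a difference of 0.38 (limma adjusted p = 0.109), while its 3 other probes lay between -0.06 and 0.03.

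A further list held defence genes of the kind that GCC box factors are known to control, and also the ripening gene E8. Of its 46 probes of 12 genes 0 passed. In mean 18 were higher, that of E8 at 0.38 among them, and 28 lower. The pathogenesis-related gene PR-1a1 had the lowest p, with 1 probe at 0.88 (limma adjusted p = 0.123). Its other probes A_96_P077804 and A_96_P144436 differed by 0.846 and -0.015. The probe of PR-5, well above background on 4 of the 6 arrays, had the largest difference of the list at -2.33 (limma adjusted p = 0.151). For dehydration and cold genes 0 of 17 probes of 6 genes passed, with 10 higher and 7 lower in mean and a median of 0.25. The abscisic acid, stress and ripening gene ASR1 held 7 of these probes, between 0.35 and 0.68, and the lowest p (limma adjusted p = 0.0807). The probes of LEA14 and Asr4 were also higher in mean, and all those of ICE1A, TSW12 and TAS14 were lower. Of 13 probes of 5 other AP2 domain genes, AP2a to AP2e, 0 passed, with a median of 0.09. The lowest p there was that of AP2e at -0.59 (limma adjusted p = 0.106), and its other named probe A_96_P261267 differed by -0.48. Of 8 probes of 4 partners of Pti and Pto signalling 0 passed, with a probe of MAPKKKe first at 0.58 (limma adjusted p = 0.13). The other MAPKKKe probes differed by 0.472, 0.119 and 0.074. Counts at an unadjusted p under 0.05 in limma were 4 higher and 0 lower for ethylene synthesis and 6 and 1 for perception. The 4 for ethylene synthesis include a probe of ACS3 that was well above background on 4 of the 6 arrays. Counts were 6 and 2 for the defence list, with E8 among the 6 and PR-5 among the 2. For dehydration they were 8 and 0, 7 of them from ASR1. For the AP2 genes they were 1 and 2, and for the Pto partners 3 and 0. Over all tested probes the shares were 14.7% higher and 5.39% lower. As 0.783% of all tested probes passed after adjustment, 0 in these short lists says little about their genes.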

How the data were processed

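RNA from 6 leaf disc samples, 3 per group, was labelled with cyanine-3, with 500 ng taken per sample according to the labels' protocols. The authors deposited 1 scanner file for each array. Its intensity values are spot signals from which Agilent Feature Extraction 11.5.1.1 had removed background and spatial trends, per the file headers, while the submitters' processing notes name version 9.1. The deposited intensity was not scaled between arrays. The authors' deposited table holds log2 ratios for 27 probes, and how it was made is not given in the sources used here. Deposited flags, in no unit other than yes or no, gave the detection calls.

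From the log2 of the processed signal, the 75th percentile of its array was subtracted. Outlier spots, 0 to 5 per array and none of a member, were left out, and repeated spots were averaged. Probes entered the fit if all arrays of either group called them well above background, which left out 6180. The groups were compared with limma 3.58.1 (lmFit, eBayes) under R 4.3.3 at a threshold of 0.05, after a check on simulated data. Transcript accessions on the array were looked up among the genes RefSeq lists for assembly SLM_r2.1, which named 2576 probes of 1191 genes. The array files name no genome build, so no coordinates are given.

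The members and lists were chosen with earlier results of these data known. List patterns were corrected after their matches were seen and before these fits. Values on every array are given for genes with a probe among the 5 smallest unadjusted p of each direction and for genes whose probes differ in sign by more than 0.3, and for the brightest and dimmest tested member. From each list the gene with the lowest p is named. Other settings for background, scaling, filter, variance, weights, pairing and single arrays left out were tried. The labels do not say that replicate numbers pair samples. Deviations of same-numbered arrays from their group means correlated at -0.16, -0.14 and -0.46.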

Additional observations from a re-analysis of the deposited data

How the results depend on the processing

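As reported, 0 member probes passed in either direction, and 0 passed with normexp, median centring, quantile normalisation, cyclic loess, spike-in scaling, both other filters, the variance trend and each array left out (limma, where 0 to 4 members had an unadjusted p under 0.05 without an array). The exception was array weights, with 1 higher, ERF-H1, as also in a fit on probes with all 6 values chosen after seeing the data (difference 0.84, limma adjusted p = 0.0249). These weights called 6.77% and 9.43% of all tested probes, against 0.783% as reported, and 1 of 24 members is below both. With the replicate block 0 member probes passed and 0 had an unadjusted p under 0.05 in limma (lowest limma adjusted p = 0.384), but it called 0 of all 37423 probes too, where 13.9% had such a p, and the numbers are not known to pair the samples. The members' median of -0.03 was -0.33 with spike-in scaling and -0.02 to 0.01 without each array in turn. The count of intervals inside 2-fold was 22 to 24 throughout. Leaving out loliolide replicate 1 also called 0 probes on the whole array (15.8% at an unadjusted p under 0.05). The other alternatives without array weights called 0.08% to 0.546% of it, and the fit as reported 0.783%. At such shares 0 of 24 members says little about the members. Without 1 array, 19 of 24 member differences moved by more than 1.5 times or turned in sign. Small differences meet this relative measure easily, such as JERF1 A_96_P212404 at 0.005 as reported. Its share over all tested probes was not counted, so the 19 says little about the members. The cause of these shifts was not tested. No fit with the slide as a block was possible, since each slide holds 1 group, and normexp used median signals.

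Of 408 comparisons of a member probe under an alternative, 376 kept their direction and stayed above the threshold, 2 passed, both ERF-H1 with array weights, and 30 changed sign, none of them past the threshold. With spike-in scaling the log2 difference was -0.066 for DREB2 A_96_P013346, -0.119 for ERF3, -0.010 for ERF4, -0.077 and -0.181 for ERF7, -0.179 and -0.294 for JERF1 A_96_P001641 and A_96_P212404, -0.075 for LOC606712 and -0.114 for PTI6 A_96_P012301. JERF1 A_96_P212404, at 0.005 as reported, was at -0.022 with normexp, -0.039 with median centring, -0.006 with quantile normalisation and -0.004 with cyclic loess, and -0.072 to 0.080 without each array. Array weights gave -0.029 for ERF7 A_96_P133267 and 0.002, 0.019 and 0.006 for JERF1 A_96_P075369, A_96_P188069 and A_96_P227104, and on probes with all 6 values -0.040, 0.004, 0.020 and 0.009. Without each array in turn, PTI5 ranged from -0.454 to 0.055, PTI6 A_96_P219679 from -0.163 to 0.053 and JERF1 A_96_P188069 from -0.113 to 0.026. Signal over background limits DREB1, which could not be tested.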
